A study of Rattus norvegicus with 12 samples.

Results

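The proteasome transcripts of the rat left ventricle were taken from the deposited gene table as every row whose symbol begins with Psma, Psmb, Psmc, Psmd or Psme followed by a number. The rule found 45 of 32735 rows. Of these, 43 name a subunit, an activator or an assembly chaperone of the proteasome. The other 2 are Psmc3ip, which encodes a recombination factor, and Psme1-ps1, a pseudogene of Psme1, and both were left out of the counts. Tissue punches came from hearts of adult wild-type Groningen rats, 1 library per rat. The 6 RSD rats were put through resident-intruder defeat sessions on each of 8 days in a row, and the 6 CTR rats were unhandled controls. No genetic manipulation is named for either group. Because the controls were unhandled, handling and defeat cannot be told apart. The comparison asks how repeated social defeat alters heart transcripts.

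The proteasome is the barrel-shaped protease that degrades proteins tagged with ubiquitin. Its core particle stacks rings of alpha subunits, which gate the entry, around rings of beta subunits, of which Psmb6, Psmb7 and Psmb5 carry the caspase-like, trypsin-like and chymotrypsin-like sites. A regulatory particle of ATPases (Psmc) and non-ATPase subunits (Psmd) binds, unfolds and feeds in the substrates. Interferon exchanges the catalytic subunits for Psmb9, Psmb10 and Psmb8, which gives the immunoproteasome, and the Psme activators open the core without ATP. In the heart the system turns over contractile and regulatory proteins, and in mammalian cells the transcription factor NRF1, encoded by Nfe2l1, raises proteasome genes when proteasome activity falls short.

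Libraries were made by 3' end sequencing, which reads 1 tag near the polyadenylated end of each transcript, so levels were not divided by transcript length. The 12 libraries held 2062798 to 3731109 reads assigned to genes, and the mitochondrial genome took 49.7% to 58.4% of them. RSD 33 was the shallowest library, and CTR 22 was the lowest control for more proteasome genes than any other control, as described below. RSD 40 is labelled female in a series of male rats, but its reads for the Y-linked genes Eif2s3y and Kdm5d (24 and 35) lay within or just above the range of the other libraries (8 to 33 and 7 to 34), so it goes against its label. Without it the same 4 proteasome genes named below were lower at an unadjusted p under 0.05, and the median log2 fold change was −0.09. Cardiomyocyte markers summed to 43941 to 50039 normalised CPM in CTR and 42725 to 49191 in RSD, and 9 of 9 were detected. Of these 9 markers, 7 had a log2 fold change below 0 (median −0.06), against 49.3% of all genes tested. Of the same markers 0 had an unadjusted p under 0.05. In bulk tissue, fewer cells of a type and less RNA per cell cannot be told apart.

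The proteasome was detected nearly whole. Reads were present for 40 of the 43 genes, and together their share of all reads was 0.370% ± 0.0277 in controls and 0.345% ± 0.0208 in defeated rats (SD, n = 6 each). Values below are normalised CPM, that is, reads scaled to a common library total (CPM) and divided by TMM scaling factors, unless a log2 scale is named. The control mean ran from 372 for Psma7, a subunit of the alpha ring, down to 1.32 for Psmd10, an assembly chaperone also known as gankyrin, with a median of 72.3. The next in order were Psmc1 (233 ± 26.4), an ATPase of the base, Psmd1 (220 ± 21.7), a scaffold of the regulatory particle, and Psmb1 (215 ± 16.4), a non-catalytic beta subunit. These 3 neighbours do not differ beyond their spread, while the lowest control value of Psma7 (341) lay above the highest of each of them (268, 248 and 235).

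Subunits that are present in equal number in the particle had unequal measured transcript levels. Reads not credited to a gene would lower its measured level, and the part of this in the ranges below was not tested. Within the alpha ring the control mean ran from 17.6 for Psma5 to 372 for Psma7, a 21.1-fold range. The range was 7.45-fold in the beta ring, from Psmb2 to Psmb1, 6.01-fold among the ATPases, from Psmc4 to Psmc1, and 6.30-fold among the non-ATPase subunits, from Psmd13 to Psmd1. Among the genes tested below, rats of the control group varied least for Psme4, an activator known from sperm and DNA repair (coefficient of variation 5.73%). Psmc5 (5.81%) and Psma7 (5.83%) came next, and Psme3, the nuclear activator, varied most (40.3%). Across the 38 tested genes the median was 13.8%, and in 37 of them it exceeded the spread that counting reads alone gives; the exception was Psma3.

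**Figure D1:**
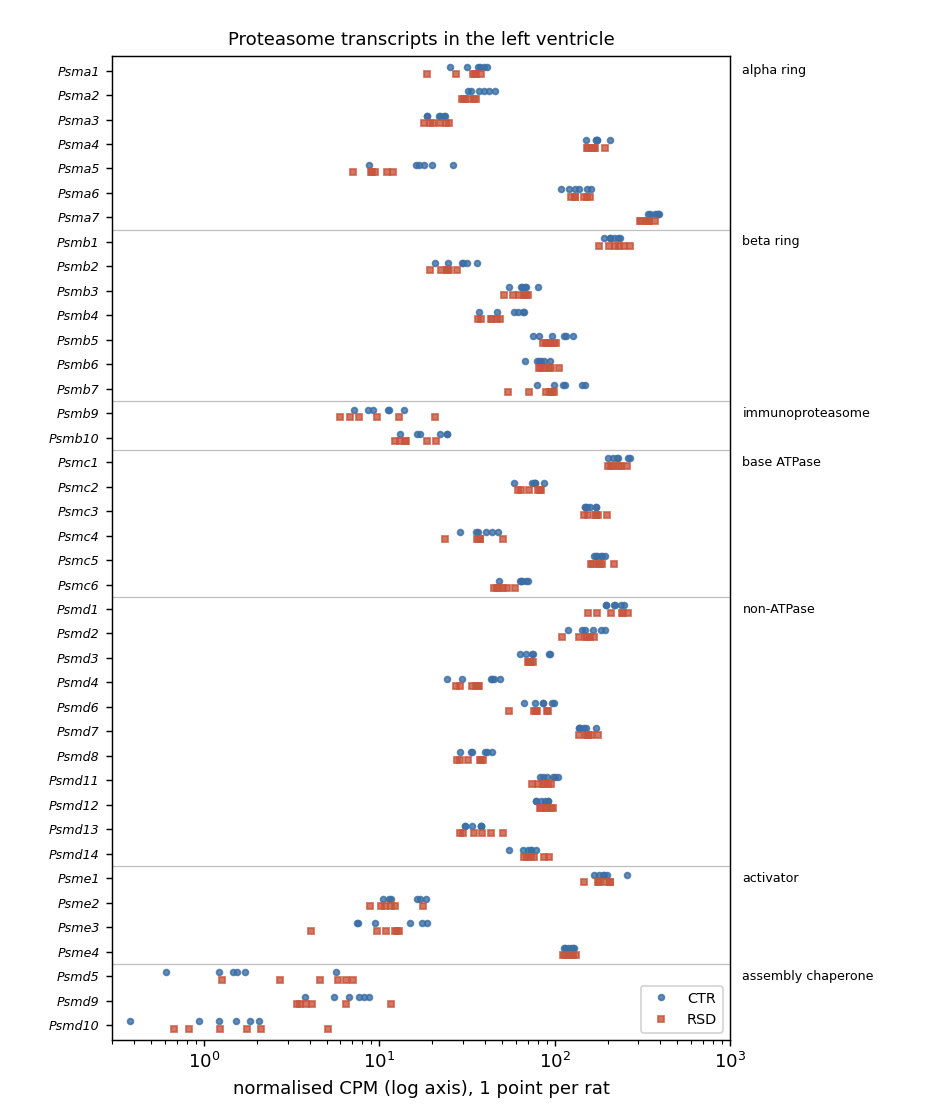
Normalised CPM of the 40 detected proteasome genes (log axis), with 1 point for each of the 6 CTR rats (circles) and 6 RSD rats (squares), grouped by part of the particle. Psma7 is the highest gene at a control mean of 372, and the assembly chaperones Psmd5 and Psmd10 are the lowest.

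No proteasome gene passed the test between defeated and control rats. After the filter on low counts 38 of the 43 genes could be tested, and 0 passed limma's test at adjusted p 0.05. Over all 7511 genes 2 passed (0.0266%), neither of them a proteasome gene. edgeR and DESeq2 on the recovered reads also called 0 proteasome genes. At an unadjusted p under 0.05, 4 of the 38 were lower in RSD (Psma5, Psmb7, Psmc6 and Psmb4), against 4.47% of all genes, and 0 were higher, against 3.89%. The log2 fold change was below 0 for 27 of the 38, with a median of −0.09, whereas 49.3% of all genes lay below 0 with a median of 0.00. In no proteasome gene did the groups stand wholly apart (0.173% of all genes did so with RSD lower and 0.12% with RSD higher). Members share pathway and libraries, so these counts describe the list and were not tested.

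**Figure D2:**
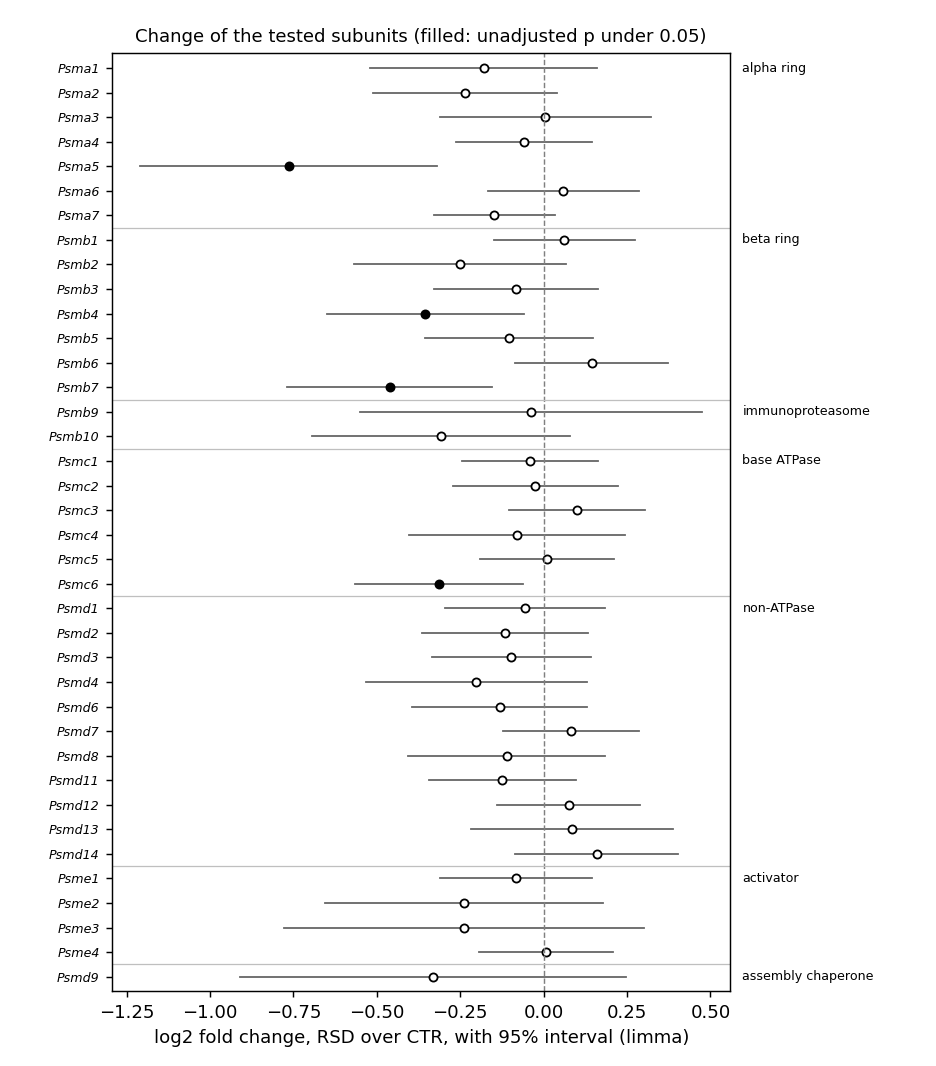
Log2 fold change, RSD over CTR, with its 95% interval from limma for each of the 38 tested genes, grouped by part of the particle; filled points have an unadjusted p under 0.05. The 4 filled points lie left of 0, at −0.76 (Psma5), −0.46 (Psmb7), −0.35 (Psmb4) and −0.31 (Psmc6).

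Psma5, the lowest transcript of the alpha ring (ENSRNOG00000019868), had the smallest p of the module. Control libraries CTR 22 to CTR 27 measured 8.67, 18.0, 26.3, 16.1, 16.8 and 19.9 normalised CPM, and RSD 33, 34, 35, 38, 39 and 40 measured 7.10, 11.1, 8.91, 9.12, 11.9 and 9.48. All 6 RSD rats lay below 5 of the 6 controls, and CTR 22 lay among the RSD rats. The means were 17.6 ± 5.71 and 9.59 ± 1.70 (SD, n = 6 each). The log2 fold change was −0.76 (SE 0.22, 95% interval −1.21 to −0.32; limma adjusted p = 0.362). These levels rest on 14 to 72 reads per library.

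Psmb7 (ENSRNOG00000011732) encodes the constitutive subunit with the trypsin-like site. Controls measured 79.6 (CTR 22), 148, 143, 99.6, 112 and 115 normalised CPM in the same order, and RSD rats 54.2, 94.3, 96.7, 71.6, 89.0 and 98.4. The 5 controls other than CTR 22 lay above all 6 RSD rats, with CTR 25 (99.6) and RSD 40 (98.4) the nearest pair. Means were 116 ± 26.0 and 84.0 ± 17.6, a log2 fold change of −0.46 (SE 0.15, 95% interval −0.77 to −0.15; limma adjusted p = 0.432).

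Psmc6 (ENSRNOG00000007203), an ATPase of the base, ranged from 48.0 to 70.1 in CTR with a median of 64.7, and from 45.2 to 59.2 in RSD with a median of 49.3. Again CTR 22 was the single control inside the RSD range, and its log2 fold change was −0.31 (SE 0.12; limma adjusted p = 0.497). Psmb4 (ENSRNOG00000020979), a non-catalytic beta subunit, ranged from 36.9 to 66.4 in CTR (median 60.4) and from 36.5 to 49.0 in RSD (median 43.8). CTR 22 and CTR 27 lay within the RSD range, and the log2 fold change was −0.35 (SE 0.14; limma adjusted p = 0.497).

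**Figure D3:**
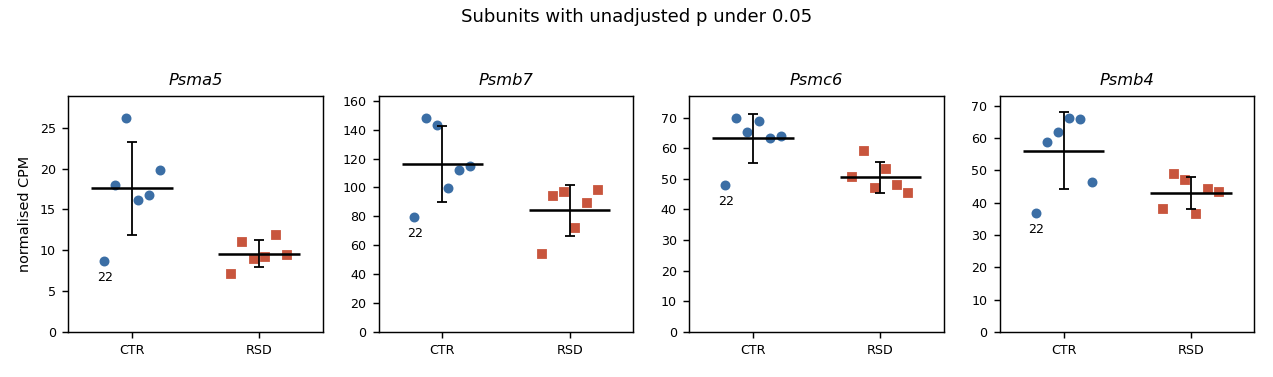
Normalised CPM of the 4 proteasome genes with an unadjusted p under 0.05, 1 point per rat, with the group mean (line) and SD (bar); 22 marks CTR 22. CTR 22 is the lowest control in all 4 panels, at 8.67, 79.6, 48.0 and 36.9, while the remaining controls of the first 3 panels lie above every RSD rat.

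In all 4 genes the same library was the lowest control. CTR 22 was the lowest control for 17 of the 38 tested genes (44.7%), and for 22.9% of all genes; CTR 25 was the lowest for 1. With CTR 22 set aside, the controls lay wholly above the RSD rats for 3 proteasome genes (Psma5, Psmb7 and Psmc6), against 1.01% of all genes. Refitted without it, Psma5 passed over all genes (log2 fold change −0.94, limma adjusted p = 0.023), 41 genes passed in all, and 6 proteasome genes were lower at an unadjusted p under 0.05 (Psma2 and Psmb2 in addition), against 7.0% of all genes. Leaving out a control that resembles the defeated rats widens the gap between groups, so this pass is not independent support. With any other single library left out, 0 proteasome genes passed and 3 to 5 were lower at an unadjusted p under 0.05. In those fits 3.05% (without CTR 24) to 4.92% (without RSD 34) of all genes were lower at this level. Psma5, Psmb7 and Psmc6 were among the lower proteasome genes each time, and Psmb4 was not without CTR 25, CTR 26 or RSD 38.

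Another library measure was set beside these 4 genes, which had been picked by their p between the groups. The mitochondrial transcript with most reads made up 24.2% of CTR 22, 22.7% of CTR 27 and 17.9% to 18.5% of the other 4 controls, and 19.4% to 25.7% of the RSD libraries. The mean log2 deviation of the 4 genes from the control mean was −0.58 in CTR 22, 0.01 in CTR 27, 0.04 to 0.29 in the other controls, and −0.27 to −0.75 in RSD. RSD 38, with the lowest share of that transcript among the RSD rats, stood at −0.57. With the share as a covariate 1 proteasome gene remained at an unadjusted p under 0.05, Psma5 (log2 fold change −0.53, limma adjusted p = 0.998), against 1.58% of all genes lower. The values for Psmb7, Psmc6 and Psmb4 were then −0.27, −0.17 and −0.15, and the median over the module was −0.04. The part of this share in the proteasome values was not tested beyond that fit.

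The sequences before the starts of Psma5 and Psmb7, the pair with the smallest p, are shown with those of Psmb10 and Psme2, 2 of the interferon-regulated members. They are RefSeq promoters of build GRCr8, 250 bases before to 50 after the gene start, printed 5′ to 3′ on the gene's strand; the deposited table was made with rn6, so these coordinates belong to the promoters alone. They lie at chr2:198584255-198584554 (plus strand) for Psma5, chr3:42827421-42827720 (minus) for Psmb7, chr19:50743243-50743542 (minus) for Psmb10 and chr15:33052702-33053001 (minus) for Psme2. Capitals mark matches, on either strand, to the antioxidant response element core that NRF1 and NRF2 bind (TGACNNNGC or TGAGNNNGC), the CCAAT box bound by NF-Y (CCAAT, or ATTGG on the other strand) and the interferon-stimulated response element core, which is GAAA, any 2 bases and GAAA again.
Psma5: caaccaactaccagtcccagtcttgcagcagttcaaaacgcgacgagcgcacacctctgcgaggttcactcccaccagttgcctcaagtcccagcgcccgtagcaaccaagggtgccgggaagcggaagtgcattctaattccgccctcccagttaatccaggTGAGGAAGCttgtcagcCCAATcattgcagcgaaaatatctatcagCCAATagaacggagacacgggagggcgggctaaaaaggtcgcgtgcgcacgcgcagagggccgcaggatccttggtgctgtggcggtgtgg
Psmb7: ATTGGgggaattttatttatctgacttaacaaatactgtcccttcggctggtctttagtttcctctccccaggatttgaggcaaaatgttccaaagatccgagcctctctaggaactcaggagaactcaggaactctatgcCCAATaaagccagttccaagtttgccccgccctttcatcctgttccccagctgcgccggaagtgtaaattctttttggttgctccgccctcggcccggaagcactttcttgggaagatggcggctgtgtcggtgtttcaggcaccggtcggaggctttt
Psmb10: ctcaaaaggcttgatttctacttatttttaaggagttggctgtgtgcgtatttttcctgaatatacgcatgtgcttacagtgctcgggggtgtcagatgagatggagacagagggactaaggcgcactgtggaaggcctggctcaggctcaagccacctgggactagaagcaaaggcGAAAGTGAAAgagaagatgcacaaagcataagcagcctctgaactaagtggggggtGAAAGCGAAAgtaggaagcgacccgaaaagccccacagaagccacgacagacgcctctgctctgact
Psme2: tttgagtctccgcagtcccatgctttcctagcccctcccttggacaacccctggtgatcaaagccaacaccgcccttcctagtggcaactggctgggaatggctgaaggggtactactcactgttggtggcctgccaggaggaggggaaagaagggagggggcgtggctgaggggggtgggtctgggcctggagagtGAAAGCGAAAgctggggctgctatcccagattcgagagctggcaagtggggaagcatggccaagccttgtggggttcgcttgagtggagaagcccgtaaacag

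Psma5 holds a TGAG form of the antioxidant core at position −87 from its start, and CCAAT boxes at −70 and −41. Psmb7 holds CCAAT at −109 and its reverse form at −250, and no antioxidant core in these letters. Psmb10 holds the interferon core at −73 and −17, and Psme2 at −53. The promoters of Psmb4 and Psmc6 held none of the motifs searched. In the printed promoters no match overlaps another.

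Promoters could be matched by symbol for 38 of the 43 genes (not for Psma7, Psmb11, Psmd6, Psmd12 and Psmd14). One or other form of the antioxidant core stood in 15 of them (39.5%), against 27.1% of 27457 promoters of the same length. CCAAT stood in 19 (50%, against 37.7%) and the interferon core in 6 (15.8%, against 3.77%). The 6 were Psmb8, Psmb10, Psme2, Psma4, Psmb3 and Psmd7, of which the first 3 are known interferon targets. The promoters of Psmb9 and Psme1, also interferon-regulated, were searched and held no match to this core. An NF-kappa B site matched in 0 of 38, against 0.371%. The median log2 fold change of tested genes was −0.07 with an antioxidant core and −0.12 without. A match is a string of letters and not a measured binding site.

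The remaining alpha subunits, like Psma5 with all 12 libraries, did not pass. Psma7 ranged from 341 to 395 normalised CPM in CTR (median 380) and from 306 to 375 in RSD (median 341). Of its 6 RSD values 4 lay below the lowest control, and the log2 fold change was −0.15 (95% interval −0.33 to 0.03; limma adjusted p = 0.684). Psma2 ranged from 31.9 to 45.6 (median 38.2) and from 29.5 to 35.6 (median 31.6), with a log2 fold change of −0.23 (−0.51 to 0.04; limma adjusted p = 0.664). The groups overlapped in both genes. Psma1 had a log2 fold change of −0.18 (−0.043 without RSD 33), Psma4 of −0.06, Psma3 of 0.01 and Psma6 of 0.06.

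The constitutive catalytic subunits had log2 fold changes of both signs. Psmb5, with the chymotrypsin-like site, ranged from 75.6 to 128 normalised CPM in CTR (median 105) and from 85.5 to 102 in RSD (median 92.0), so that every RSD value lay inside the control range. Its log2 fold change was −0.10 (95% interval −0.36 to 0.15). Psmb6, with the caspase-like site, ranged from 68.1 to 94.5 (median 82.2) and from 81.7 to 105 (median 90.0), a log2 fold change of 0.14 (−0.08 to 0.37). The 3 catalytic transcripts had log2 fold changes of −0.46 (Psmb7), −0.10 (Psmb5) and 0.14 (Psmb6), and these differences between genes were not tested. Among the other beta subunits Psmb2 ranged from 20.8 to 36.1 (median 29.8) in CTR and from 19.5 to 27.8 (median 24.3) in RSD (log2 fold change −0.25; limma adjusted p = 0.694). Psmb3 had a log2 fold change of −0.08 and Psmb1 of 0.06.

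As measured, immunoproteasome transcripts were a minor part of the module, with a mean sum in CTR of 29.8 against 3643 normalised CPM for all subunits. Psmb8 was listed at 0 in all 12 libraries, which allows a level of up to 0.804 to 1.45 CPM per library by counting error. A lack of expression and a lack of reads credited to this gene look alike in such a table. Psmb9 ranged from 7.13 to 13.9 normalised CPM in CTR (median 10.2) and from 5.97 to 20.8 in RSD (median 8.66), the highest being RSD 33. Its log2 fold change was −0.04 (95% interval −0.55 to 0.47), and it rested on 16 to 41 reads per library; its sign was positive in edgeR and DESeq2, and without RSD 33 it was −0.24. Psmb10 ranged from 13.1 to 24.4 (median 19.6) and from 12.2 to 21.0 (median 14.1). The groups overlapped, with a log2 fold change of −0.31 (95% interval −0.69 to 0.08; limma adjusted p = 0.694).

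Set against their constitutive counterparts, the immune subunits took shares whose group means differed by less than their spread. Psmb9 made up 11% ± 2.31 of the pair with Psmb6 in CTR and 10.4% ± 5.06 in RSD (SD, n = 6 each), with RSD 33 highest at 19.3%. Psmb10 made up 14.8% ± 4.05 of the pair with Psmb7 in CTR and 15.9% ± 3.48 in RSD. These shares describe transcripts and not assembled particles.

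**Figure D4:**
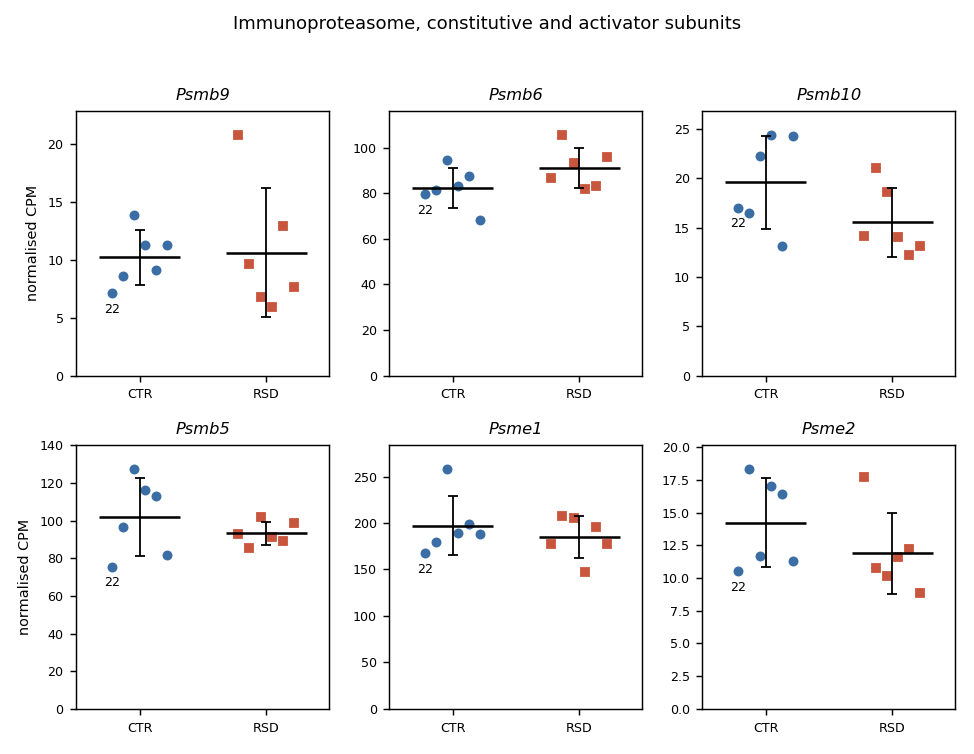
Normalised CPM of Psmb9 and Psmb10 (immune subunits), Psmb6 and Psmb5 (constitutive subunits), and Psme1 and Psme2 (activator), 1 point per rat, with the group mean (line) and SD (bar); 22 marks CTR 22. The groups overlap in all 6 panels, and RSD 33 is the highest RSD rat for Psmb9 at 20.8 and for Psme2 at 17.7.

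The activators did not pass either. Psme1 and Psme2 form the interferon-inducible cap of the core particle, and their transcripts differed widely in level. Psme1 ranged from 167 to 259 normalised CPM in CTR (median 189) and from 148 to 207 in RSD (median 187), a log2 fold change of −0.08 (95% interval −0.31 to 0.14) that was −0.0033 without CTR 24. The pseudogene Psme1-ps1 had 9 to 23 reads per library, and reads could be split between it and Psme1. Psme2 ranged from 10.5 to 18.4 (median 14.1) and from 8.87 to 17.7 (median 11.2), with a log2 fold change of −0.24 (−0.66 to 0.18). Psme4 ranged from 112 to 129 (median 122) and from 111 to 132 (median 123), a log2 fold change of 0.01 (−0.19 to 0.21). Psme3 had a log2 fold change of −0.24 on 8 to 61 reads per library, which was −0.017 without RSD 33 and 0.27 with the mitochondrial share as a covariate.

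In the regulatory particle, Psmc6 was the 1 of 17 tested subunits lower at an unadjusted p under 0.05, against 4.47% of all genes. The other ATPases lay between −0.08 (Psmc4, 0.039 without RSD 33) and 0.10 (Psmc3). The 11 non-ATPase subunits lay between −0.20 for Psmd4, a ubiquitin receptor, and 0.16 for Psmd14, the deubiquitinase that strips ubiquitin from substrates. Psmd14 ranged from 55.1 to 77.7 normalised CPM in CTR and from 67.0 to 93.4 in RSD, with overlap (95% interval −0.09 to 0.40), and its log2 fold change was −0.0064 with the mitochondrial covariate. The interval of Psmd1, the most abundant non-ATPase transcript, was −0.30 to 0.19.

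Assembly chaperones were scarce. Psmd9 averaged 6.75 ± 1.86 normalised CPM (controls) and 5.49 ± 3.22 (defeated rats). Psmd5 ranged from 0.607 to 5.62 in CTR (median 1.5) and from 1.27 to 7.10 in RSD (median 5.18), on 2 to 21 reads per library, and did not pass the filter on low counts with all 12 libraries. Without the filter its log2 fold change was 0.92 (limma adjusted p = 0.768). In all, 5 of 6 controls lay at or below 1.71 (2 to 5 reads), and 5 of 6 RSD rats at or above 2.72. These cuts were set with the values seen, so the split is a description and not a test. Psmd10 had 1 to 10 reads per library and was not tested, and Psma8 and Psmb11, known from testis and thymus, were listed at 0 in all 12 libraries.

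Summed over parts of the particle, the RSD mean lay below the CTR mean in 6 parts and above it for the scarce assembly chaperones (10.1 ± 1.51 in CTR and 12.1 ± 6.33 in RSD, a ratio of 1.20). That higher RSD mean came with 1 library, RSD 33 at 23.8, and the median of the chaperone sum was 10.3 in both groups. The alpha ring summed to 795 ± 39.6 normalised CPM in CTR and 739 ± 27.8 in RSD, and the beta ring to 667 ± 57.7 and 624 ± 36.7. The ATPases summed to 749 ± 21.4 and 740 ± 44.3, the non-ATPase subunits to 1048 ± 57.6 and 1024 ± 48.5, the activators to 345 ± 29.0 and 329 ± 29.2, and the immune subunits to 29.8 ± 6.61 and 26.2 ± 5.77 (SD, n = 6 each). As ratios of RSD to CTR these were 0.929, 0.935, 0.988, 0.977, 0.955 and 0.878. The alpha ring sum was highest in CTR 25 (864) and lowest in RSD 39 (695), and the groups overlapped for each of the 6 sums.

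**Figure D5:**
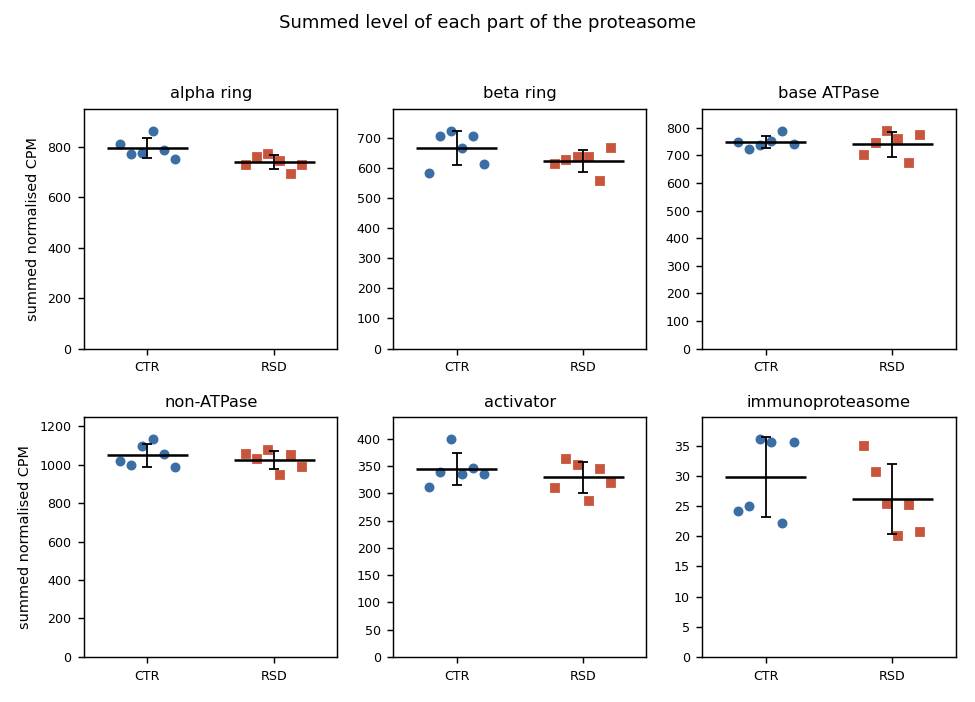
Summed normalised CPM of 6 parts of the proteasome, 1 point per rat, with the group mean (line) and SD (bar); axes start at 0. The alpha ring means are 795 in CTR and 739 in RSD, and the groups overlap in every panel.

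Genes that act with the proteasome were read from 7 further lists, in which 0 genes passed over all genes tested. The assembly chaperones outside the rule (4 tested) had a median log2 fold change of −0.12, led by Psmg3 (−0.33), Psmg4 (−0.18) and Psmg1 (0.21), and 0 reached an unadjusted p under 0.05. Among 8 tested partners of the particle the median was 0.00 and 1 was higher at that level. This was Psmf1, which encodes the inhibitor PI31, whose mean was 20.4 ± 3.39 in controls and 26.5 ± 5.44 in defeated rats (log2 fold change 0.36; limma adjusted p = 0.565). Shfm1, a small lid subunit, had −0.33 and Adrm1, a ubiquitin receptor, 0.38.

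Ubiquitin-conjugating enzymes (8 tested, median 0.00) held 1 gene higher, Ube2r2 (0.36; limma adjusted p = 0.517), and 1 lower, Ube2d1 (−0.32; limma adjusted p = 0.578), with Ube2a at −0.42. Muscle ubiquitin ligases (11 tested, median 0.06) held 1 gene higher at an unadjusted p under 0.05. Trim54, which encodes MURF3, a ligase at microtubules and the Z-disc, averaged 204 ± 24.3 in controls and 259 ± 30.8 in defeated rats (log2 fold change 0.34, SE 0.10; limma adjusted p = 0.366). Its paralog Trim55 had −0.30 and Cul4a, a scaffold of ligases, −0.22. Fbxo32 and Trim63, the atrophy ligases atrogin-1 and MURF1, had log2 fold changes of 0.06 (95% interval −0.18 to 0.29) and −0.11 (−0.39 to 0.18), and are named outside the rule, with their values known, because of that role. Shuttles and the p97 segregase (10 tested, median −0.08) held 0 genes at that level, with Vcp (p97 itself) at −0.18, Nbr1 at −0.53 and Ubqln1 at −0.17.

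Transcription factors of proteasome genes and their processing enzymes (10 tested) had a median of 0.10 and 1 gene higher at an unadjusted p under 0.05. Nfe2l2, which encodes NRF2, averaged 43.4 ± 4.52 in controls and 53.1 ± 7.77 in defeated rats (log2 fold change 0.28; limma adjusted p = 0.561). Ddi2, the protease that activates NRF1, had 0.38 and Maff, a small partner of these factors, −0.51. Nfe2l1 itself had 0.14 (95% interval −0.04 to 0.32; named outside the rule for its role). Interferon factors and peptide loading genes (9 tested, median 0.03) held 1 gene lower, Stat2 (20.4 ± 2.46 and 14.0 ± 3.90 normalised CPM; log2 fold change −0.55, limma adjusted p = 0.432), followed by Irf1 (−0.41) and Tapbp (0.42). These counts stand against the 4.47% and 3.89% of all genes that were lower and higher at this level.

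Cell type markers were read beside these values. For comparison, 4.47% of all genes tested were lower and 3.89% higher at an unadjusted p under 0.05, and 49.3% lay below 0. Of the leukocyte markers, which mark cells rich in immunoproteasomes, 10 of 10 tested had a log2 fold change below 0 (median −0.29), and their summed level was 318 to 490 normalised CPM in CTR and 312 to 359 in RSD. Of that list 1 was lower at an unadjusted p under 0.05 (Fcer1g, −0.56; limma adjusted p = 0.474), and 15 of 16 symbols had reads. Summed endothelial markers were 156 to 190 in CTR and 173 to 228 in RSD, with 2 of 5 below 0 (Kdr, −0.08, and Cdh5, −0.05; list median 0.18) and Eng (0.42) and Tek (0.48) higher at an unadjusted p under 0.05 (limma adjusted p = 0.432 and 0.459). Fibroblast markers summed to 577 to 788 and 631 to 699, with 4 of 5 below 0 (median −0.03) and Col3a1 lower at that level (−0.38; limma adjusted p = 0.387), and mural markers to 64.0 to 110.2 and 52.7 to 91.2, with 4 of 5 below 0 (median −0.44). Red cell markers summed to 2384 to 13718 and 2414 to 26706, with 1 of 5 below 0 (median 0.40) and Ahsp higher at an unadjusted p under 0.05 (0.86; limma adjusted p = 0.553). Atrial markers summed to 93.8 to 218 and 59.8 to 433, with 0 of 3 tested below 0 (median 0.51). No marker list had a gene at 0 in all libraries, and the part of these cell types in the proteasome values was not tested.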

How the data were processed

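The authors deposited 1 table of CPM values, reads scaled to a common total in each library, for 32735 rows and 12 libraries. Build rn6 and the tools bcl2fastq, STAR (2.6.0a), HTSeq (0.9.1) and DESeq2 are listed, without roles, per the submitters' processing notes; they give no annotation release. Per the labels' protocols, libraries came from 100 ng of total RNA with a QuantSeq forward 3' kit.

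Low CPM values were whole multiples of 1 read (0.268 to 0.485 CPM). Within 0.1 read, 99.8% to 100.0% of the values above 0 in a library came out whole, which gave the reads per gene. Genes were kept by filterByExpr (minimum count 10), leaving 7511. limma 3.58.1 (R 4.3.3) was fitted on log2(CPM + 1) after TMM factors (edgeR 4.0.16), with a variance trend, two-sided, with Benjamini-Hochberg adjustment over all genes; fold changes on this scale understate those of low genes. Count tests on recovered reads (edgeR; DESeq2 1.42.0) were alternatives, and each called 2 genes. The scripts were tested on simulated data. Floors for genes at 0 are 3 reads and cover counting error only. The labels name no separate cohorts or batches, and p-values set the difference between groups against the spread between these rats.

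Members and lists were chosen with earlier results of these data known. Values per group are given for the 8 members with the smallest p and for the catalytic, immune and activator subunits, and up to 3 genes are named per further list, plus those named for their role. The values of 1 further list are not reported here. Promoters are from RefSeq.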

Additional observations from a re-analysis of the deposited data

Results flagged for a closer look

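In 6 of 100 combinations of a group and a proteasome measure, 1 library stood far from the other 5, by a gap to its neighbour, divided by the whole range of that group, above Dixon's 95% critical value; chance gives about 1 in 20. The gap was 0.695 for Psmc6 in CTR 22 (lowest control), 0.658 for Psme1 in CTR 24 (highest), 0.78 for Psmd5 in CTR 23 (highest), and, all in the shallowest library RSD 33, 0.633 for Psmd9 (highest), 0.67 for Psmd10 (highest) and 0.637 for Psme3 (lowest). Psmd9, Psmd10 and Psme3 had 9 to 28, 1 to 10 and 8 to 61 reads per library.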

How the results depend on the processing

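Under 22 alternatives (other scaling, filters, pseudocounts and tests, the mitochondrial genome left out or its top row as a covariate, and each library left out in turn), 289 of 304 recomputed values for 14 named genes kept their direction. The number of proteasome genes past adjusted p 0.05 was 0 in all of them except without CTR 22, where it was 1 (Psma5), so that leaving out 1 library gave 0 to 1. Those lower at an unadjusted p under 0.05 were 1 with the mitochondrial covariate (1.58% of all genes) in place of 4 (4.47%). With 1 library left out they were 3 to 6, against 3.05% to 7.0% of all genes. Those higher were 1 (Psmd5) with no filter in place of 0, and 0 to 1 with 1 library left out, because the filter then let Psmd5 in. The median over the module stayed below 0 throughout, from −0.13 without CTR 22 to −0.04 with the covariate. CPM as deposited shifted the median of all genes to −0.04 and that of the module to −0.13, with 78.9% of its genes below 0 in place of 71.1%.

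Over all 38 tested genes, 10 changed sign with the covariate (Psmc4 to 0.15 and Psme3 to 0.27 among them) and 0 to 5 under each other alternative (of 32 genes with the stricter filter). Among the 14 named genes, signs changed for Psmb9, which was 0.030 with edgeR, 0.036 with DESeq2, and −0.24 (without RSD 33) to 0.088 (without RSD 38) with 1 library left out, and for Psmb5, which was 0.077 with the covariate. Psme4 was −0.034 with CPM as deposited and −0.034 with the covariate, −0.0033 with no filter, and −0.019 to 0.033 with 1 library left out; with CPM as deposited it moved as the median of all genes did. The causes were not tested. Among counts for the further lists, the unreported one included, 298 of 352 stayed within 1.5 times. No paired analysis was possible because the groups share no replicate numbers. Depth limits genes such as Psmd5 and Psmd10, and a missed threshold does not show equality.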
